A study of Mus musculus with 8 samples.

Results

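The heat shock chaperones described here are 10 genes, picked by symbol, out of 55487 genes in the count table: Hspa1a, Hspa1b, Hspa8, Dnajb1, Hsph1, Hsp90aa1, Hsp90ab1, Hspd1, Hspe1 and their transcription factor Hsf1. All 10 were found and all 10 passed the filter on low counts, which kept 18884 genes. RNA was sequenced from mouse pro-B cells, the B lineage precursors of the bone marrow that rearrange their heavy chain genes, in 4 libraries labelled CD25_KO and 4 labelled WT. CD25, encoded by Il2ra, is a chain of the receptor for interleukin-2, and the comparison asks which transcripts differ where it is absent. The sources used here give neither strain, age and sort of the cells nor how the knockout was made. Since the labels tie no sample to its own animal, p-values measure only how these samples scatter, and part of that may be technical.

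Chaperones of the heat shock families bind unfolded or unfinished proteins and pass them between one another with the use of ATP. Some are made at high level in every growing cell, while others are made mainly after heat, oxidative or handling stress. The induced set is switched on by HSF1, which binds repeats of the letters GAA in alternating orientation, called heat shock elements, and is itself held back by the chaperones it induces. Pro-B cells divide, and dividing cells use the constitutive set to fold newly made kinases, cytoskeleton and mitochondrial proteins.

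No heat shock chaperone changed past the test between CD25_KO and WT. Of the 10 genes, 0 were called by edgeR's quasi-likelihood test at a Benjamini-Hochberg adjusted p of 0.05, as were 0% of all 18884 genes, and the smallest adjusted p among the chaperones was 0.391. The genes nonetheless fell into sets that behaved differently from library to library. Hspa1a, Hspa1b, Dnajb1, Hsph1 and Hsf1 varied several-fold among the WT libraries, while Hsp90ab1, Hspd1 and Hspe1 were held within a narrow range there. Hsp90aa1 and Hspe1 lay lower in all 4 CD25_KO libraries than in any WT library.

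**Figure D1:**
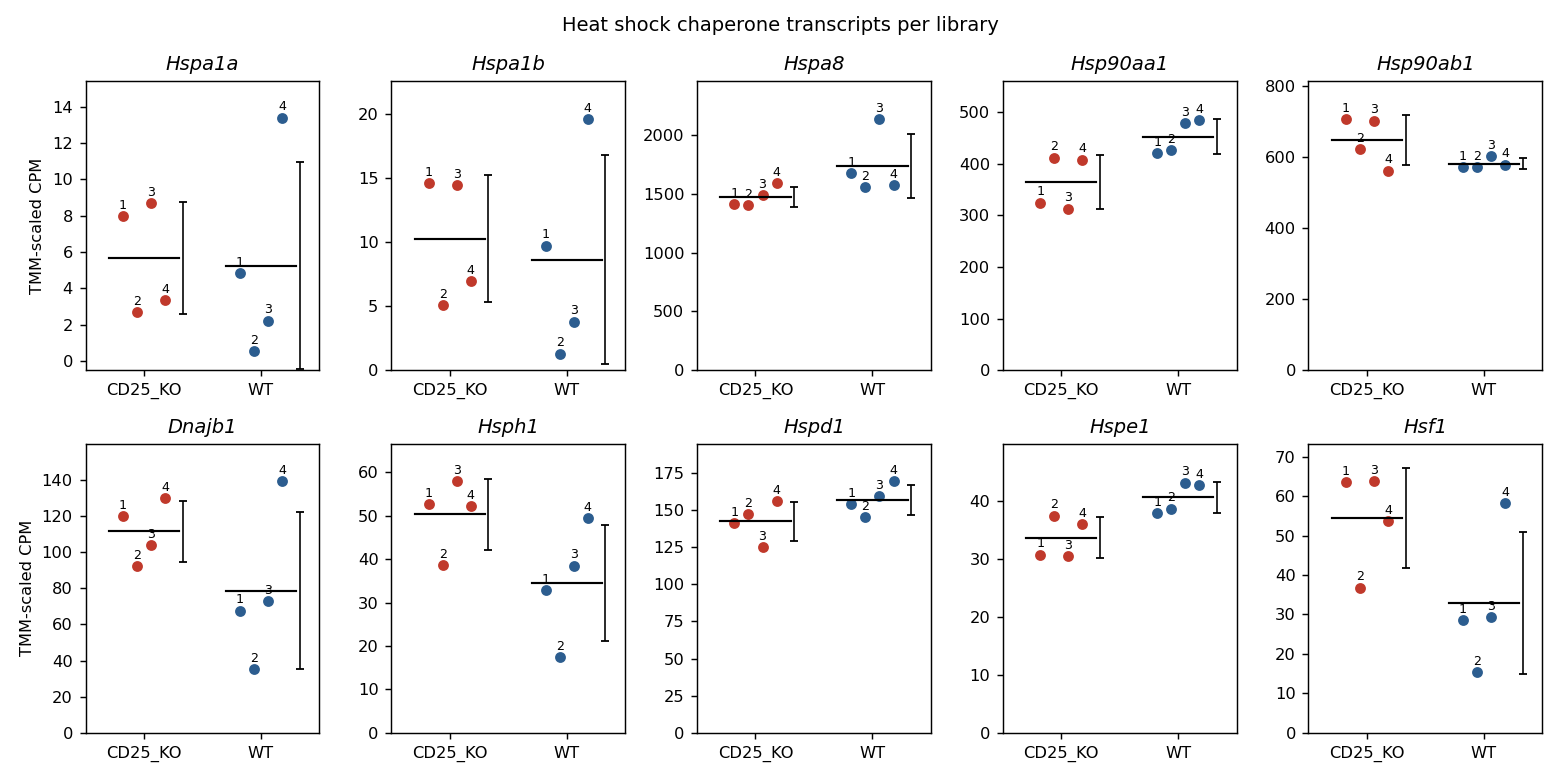
TMM-scaled CPM (vertical axis) of the 10 heat shock chaperone genes in the 4 CD25_KO libraries (left) and 4 WT libraries (right); numbers are replicates, the horizontal line is the mean and the bar its SD. WT 2 is the lowest and WT 4 the highest library for Hspa1a (0.547 and 13.4 CPM), whereas Hsp90ab1 in WT spans 572 to 604 CPM.

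Library totals ran from 43974037 to 57988772 counts. Il2ra did not bear out the genotype labels in either direction: its CPM (counts scaled to library size with TMM factors) was 145, 168, 244 and 168 in CD25_KO 1 to 4, against 200, 216, 216 and 140 in WT 1 to 4, with a log2 fold change of −0.09 ± 0.19 (SE) and an edgeR adjusted p of 0.849. The groups are therefore named by their labels throughout. The 13 pro-B cell markers reported, among them Vpreb1, Rag1 and Dntt, summed to 7482.1 to 8622.7 CPM in CD25_KO and 7581.2 to 8904.1 CPM in WT. Within that sum 3 fold changes were positive and 10 negative, 0 were called, and 3 had an unadjusted p under 0.05, chosen here after their values were seen. Ebf1 was on the higher side (761 ± 144 CPM in CD25_KO and 575 ± 30 CPM in WT), and Vpreb1 and Igll1 (86.5 ± 51.3 CPM in CD25_KO and 163 ± 55.4 CPM in WT; SD, n = 4 each) on the lower side. Y-linked transcripts were abundant in CD25_KO 2 and 4 and in WT 2 (508, 514 and 473 CPM) and reached at most 2.73 CPM in the other libraries, so libraries with such transcripts occurred in both groups.

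Promoter sequence is shown for the genes whose windows held a heat shock element, since that is the site through which the family is known to be controlled together. RefSeq windows on GRCm38.p6, from 250 bases before to 50 bases after the start site, were matched for 6 of the 10 genes (Hspa1a, Hspa1b, Dnajb1, Hsph1, Hspd1 and Hspe1). The search used GAANNTTC and TTCNNGAA for 2 units and GAANNTTCNNGAA and TTCNNGAANNTTC for 3 units. Each 2-unit motif reads the same on both strands, and a 3-unit match holds a pair of overlapping 2-unit matches. A 2-unit match occurred in 15.1% of all 32817 windows and a 3-unit match in 0.603%. Of the 6 genes, 5 had a 2-unit match and 3 had a 3-unit match in any of their windows, 9 in all. These are counts of genes, whereas the shares are of windows, and Hspe1 and Hspd1 share their matched DNA. Capitals below mark the matches, every sequence runs 5′ to 3′ along its gene's strand, and a match is a description of letters, not of HSF1 binding.
Hspa1a, chr17:34972157-34972406, minus strand: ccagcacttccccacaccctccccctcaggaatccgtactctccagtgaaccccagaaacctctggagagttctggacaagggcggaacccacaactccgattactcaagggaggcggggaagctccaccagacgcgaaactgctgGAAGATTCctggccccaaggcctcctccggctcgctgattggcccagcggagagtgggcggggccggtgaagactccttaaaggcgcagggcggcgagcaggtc
Hspa1b, chr17:34959239-34959488, minus strand: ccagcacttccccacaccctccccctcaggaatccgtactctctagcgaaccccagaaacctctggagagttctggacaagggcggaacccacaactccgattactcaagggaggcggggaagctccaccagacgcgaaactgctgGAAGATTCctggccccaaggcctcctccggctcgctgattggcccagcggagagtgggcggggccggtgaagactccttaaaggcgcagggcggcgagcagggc
Hsph1, chr5:149636357-149636436, minus strand: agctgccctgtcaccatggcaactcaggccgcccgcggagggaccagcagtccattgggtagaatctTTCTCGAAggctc
Hspe1, chr1:55088053-55088082, plus strand: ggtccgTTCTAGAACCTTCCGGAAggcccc
Hspd1, chr1:55088053-55088082, minus strand: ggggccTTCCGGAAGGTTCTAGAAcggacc

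The Hspa1a and Hspa1b stretches are nearly the same: 296 of the 300 positions of their windows were identical. Both carry GAAGATTC at −104 to −97 from the start site, and both carry the CCAAT motif, written ATTGG on this strand, at −67 to −63. CCAAT on either strand was present in 37.4% of all windows. Measured from its upstream RefSeq start, Hsph1 holds TTCTCGAA at −33 to −26, and past that start a 3-unit match, TTCTGGAAAGTTC, at 37 to 49. From its downstream RefSeq start the same matches lie at −54 to −47 and at 16 to 28. Hspe1 and Hspd1 are neighbours on opposite strands, and the run shown for both is 1 stretch of DNA: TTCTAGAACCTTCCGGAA lies at −89 to −72 from the Hspe1 start and, read on the other strand, at −144 to −127 from one of the RefSeq starts of Hspd1. The Dnajb1 windows held no match to these letters, and CCAAT occurred there at −151 to −147 and at 12 to 16.

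Levels between genes were compared per kilobase of summed exon length. Hspa8 was the most abundant, at 342 ± 20.1 CPM per kilobase in CD25_KO and 403 ± 63.6 in WT (SD, n = 4 each). Hsp90ab1 followed with 217 ± 23.3 CPM per kilobase in CD25_KO and 194 ± 5.04 in WT, then Hsp90aa1 with 92.8 ± 13.4 in CD25_KO and 115 ± 8.74 in WT, and Hspd1 with 53.9 ± 4.86 in CD25_KO and 59.3 ± 3.78 in WT. Dnajb1 (34.8 ± 5.25 CPM per kilobase in CD25_KO, 24.5 ± 13.5 in WT) and Hspe1 (22.8 ± 2.46 in CD25_KO, 27.5 ± 1.82 in WT) stood in the other order in WT, where they did not differ beyond their spread. The least abundant genes were Hsf1 (7.67 ± 1.78 in CD25_KO, 4.63 ± 2.54 in WT), Hsph1 (6.94 ± 1.13 in CD25_KO, 4.76 ± 1.84 in WT), Hspa1b (3.66 ± 1.77 in CD25_KO, 3.07 ± 2.9 in WT) and Hspa1a (1.91 ± 1.04 in CD25_KO, 1.77 ± 1.92 in WT). Hsf1 and Hsph1 did not differ beyond their spread in either group, nor did Hspa1b and Hspa1a. The 10 genes together took 0.28 to 0.299% of all counts in CD25_KO and 0.288 to 0.35% in WT, and Hspa8 alone made up 50.8 ± 1.67% of their summed CPM in CD25_KO and 55.3 ± 3.93% in WT (SD, n = 4 each).

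**Figure D2:**
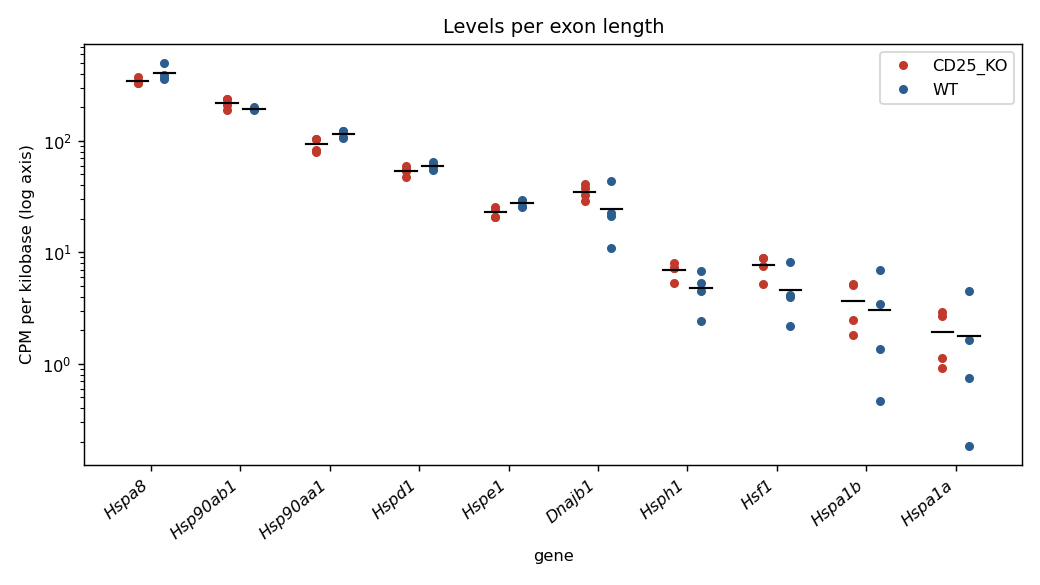
CPM per kilobase of exon length (log axis) for each gene in the CD25_KO libraries (red, left) and WT libraries (blue, right); dots are libraries and lines are means. Hspa8 averages 342 in CD25_KO and 403 in WT, and Hspa1a 1.91 in CD25_KO and 1.77 in WT.

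Hspa1a and Hspa1b encode the stress-inducible cytosolic HSP70 and sit side by side on chromosome 17 (34969190 to 34972156 and 34956436 to 34959238, minus strand, mm10). Hspa1a stood at 7.96, 2.71, 8.68 and 3.35 CPM in CD25_KO 1 to 4, against 4.84, 0.547, 2.23 and 13.4 CPM in WT 1 to 4. All CD25_KO values lay within the WT range, since the lowest and the highest of the 8 libraries were both WT. In raw counts, WT 4 had 747 and WT 2 had 31, which is a 24.5-fold range in CPM within WT, against a 3.2-fold range within CD25_KO. The SD of log2 CPM was 0.837 in CD25_KO, above that of 97.8% of the 13781 genes with at least 1 CPM on average, and 1.85 in WT, above that of 99.9%. With that spread the log2 fold change of Hspa1a was 0.11 ± 0.77 (SE), with a 95% interval of −1.62 to 1.83 and an edgeR adjusted p of 0.962.

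Hspa1b stood at 14.6, 5.08, 14.4 and 6.94 CPM in CD25_KO, against 9.72, 1.3, 3.79 and 19.6 CPM in WT. The WT libraries fell in the same order as for Hspa1a, with WT 2 lowest and WT 4 highest. Its log2 fold change was 0.25 ± 0.69 (edgeR adjusted p = 0.891). The genes cannot be fully separated, because 1918 of 1929 aligned coding positions (99.4%) are identical and fragments that map to both were counted at each. Their sequences after the coding part shared 48.1% of 813 aligned positions, and the ratio of Hspa1a to Hspa1b per kilobase was 0.456 to 0.567 in CD25_KO and 0.396 to 0.647 in WT. Summed into 1 row, they had a log2 fold change of 0.20 and an edgeR adjusted p of 0.921.

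Dnajb1, the HSP40 partner that hands clients to HSP70 and stimulates its ATPase, lies on chromosome 8 (83608193 to 83612653, plus strand). It had 120, 92.1, 104 and 130 CPM in CD25_KO, against 67.6, 35.3, 72.8 and 139 CPM in WT. All CD25_KO libraries exceeded WT 1, 2 and 3, while WT 4 was the highest of the 8. The means were 112 ± 16.8 CPM in CD25_KO and 78.6 ± 43.3 CPM in WT (SD, n = 4 each), with a log2 fold change of 0.51 ± 0.34 and an edgeR adjusted p of 0.521.

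Hsph1 encodes HSP110, a nucleotide exchange factor of HSP70, and lies on chromosome 5 (149614287 to 149636376, minus strand). It had 52.7, 38.7, 57.9 and 52.2 CPM in CD25_KO, against 32.9, 17.5, 38.5 and 49.5 CPM in WT. WT 2 was again the lowest library, and the groups overlapped through WT 4. The means were 50.4 ± 8.19 CPM in CD25_KO and 34.6 ± 13.3 CPM in WT (SD, n = 4 each). The log2 fold change was 0.54 ± 0.27, with an unadjusted p of 0.0765 and an adjusted p of 0.421 by edgeR.

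Hsf1, the factor that switches on the induced set, lies on chromosome 15 (76477422 to 76501913, plus strand). Its transcript had 63.5, 36.8, 63.7 and 53.7 CPM in CD25_KO, against 28.5, 15.4, 29.4 and 58.2 CPM in WT. As for Dnajb1 and Hsph1, every CD25_KO library was above WT 1, 2 and 3 and the groups overlapped through WT 4. The means were 54.4 ± 12.7 CPM in CD25_KO and 32.9 ± 18 CPM in WT (SD, n = 4 each). Its log2 fold change of 0.73 ± 0.35 was the largest in size among the 10 genes, with an unadjusted p of 0.0662 and an adjusted p of 0.407 by edgeR. HSF1 is known to be controlled mainly as a protein, so its transcript level does not measure its activity.

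**Figure D3:**
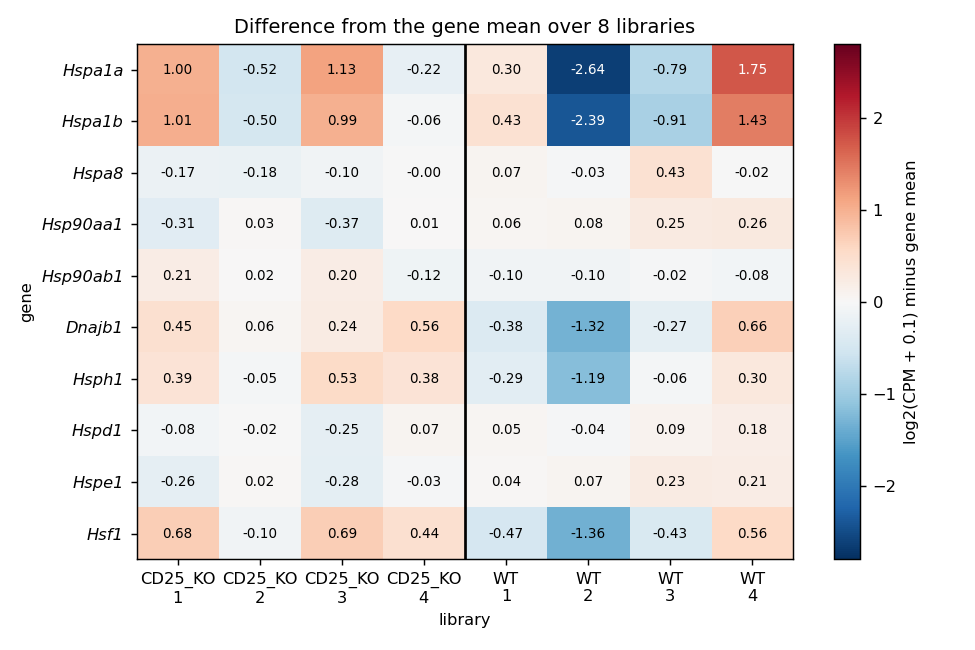
Difference of log2(CPM + 0.1) from each gene's mean over the 8 libraries (colour and printed value), with CD25_KO libraries left of the line and WT libraries right of it. Hspa1a ranges from −2.64 in WT 2 to 1.75 in WT 4, and Hsf1 from −1.36 in WT 2 to 0.69 in CD25_KO 3.

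Hspa8 encodes HSC70, the constitutive HSP70 that folds new proteins and drives chaperone-mediated autophagy, and lies on chromosome 9 (40800984 to 40810087, plus strand). It had 1411.1, 1404.5, 1485.4 and 1589.9 CPM in CD25_KO, against 1675.3, 1553.6, 2137.4 and 1572.9 CPM in WT. WT 3 was the highest library, and CD25_KO 4 lay above WT 2 and WT 4. The means were 1472.7 ± 86.3 CPM in CD25_KO and 1734.8 ± 274 CPM in WT (SD, n = 4 each). The log2 fold change was −0.24 ± 0.11, with an edgeR adjusted p of 0.404, and it was −0.12 without WT 3.

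HSP90 matures kinases, steroid receptors and other clients that HSP70 hands on, and its stress-responsive form is Hsp90aa1 (chromosome 12, 110690605 to 110702728, minus strand). Hsp90aa1 had 325, 412, 313 and 408 CPM in CD25_KO, against 420, 426, 479 and 485 CPM in WT. Every CD25_KO library was below every WT library, although CD25_KO 2 and 4 came close to WT 1. The means were 365 ± 52.5 CPM in CD25_KO and 453 ± 34.3 CPM in WT (SD, n = 4 each). The log2 fold change was −0.31 ± 0.12 with a 95% interval of −0.57 to −0.05, an unadjusted p of 0.0226 and an adjusted p of 0.391 by edgeR.

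Hsp90ab1, the constitutive form of HSP90, lies on chromosome 17 (45567775 to 45573271, minus strand). It had 709, 623, 704 and 563 CPM in CD25_KO, against 573, 572, 604 and 580 CPM in WT. CD25_KO 1, 2 and 3 were above the WT libraries and CD25_KO 4 was below them. The WT libraries were almost level: the SD of their log2 CPM was 0.037, and 0.544% of the 13781 genes varied less. In CD25_KO the SD was 0.158, and 29.7% of the genes varied less. The log2 fold change was 0.16 ± 0.09, with an edgeR adjusted p of 0.477, and it was 0.10 without CD25_KO 1.

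The ratio of the HSP90 forms did not overlap between the groups. Hsp90aa1, its numerator, already lay lower in CD25_KO without overlap, as did 4.17% of all tested genes. The ratio of Hsp90aa1 to Hsp90ab1 per kilobase was 0.35, 0.505, 0.34 and 0.552 in CD25_KO, against 0.56, 0.568, 0.605 and 0.638 in WT. CD25_KO 1 and 3 had the lowest ratios, and CD25_KO 4 came close to WT 1. The mean ratio was 0.437 ± 0.108 in CD25_KO and 0.593 ± 0.0362 in WT (SD, n = 4 each). No test was made of this ratio, and the share of other gene pairs whose ratios do not overlap is not given here. Together the pair took 0.103, 0.104, 0.103 and 0.0967% of all counts in CD25_KO and 0.101, 0.102, 0.106 and 0.102% in WT, so their sum was close to level across libraries.

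**Figure D4:**
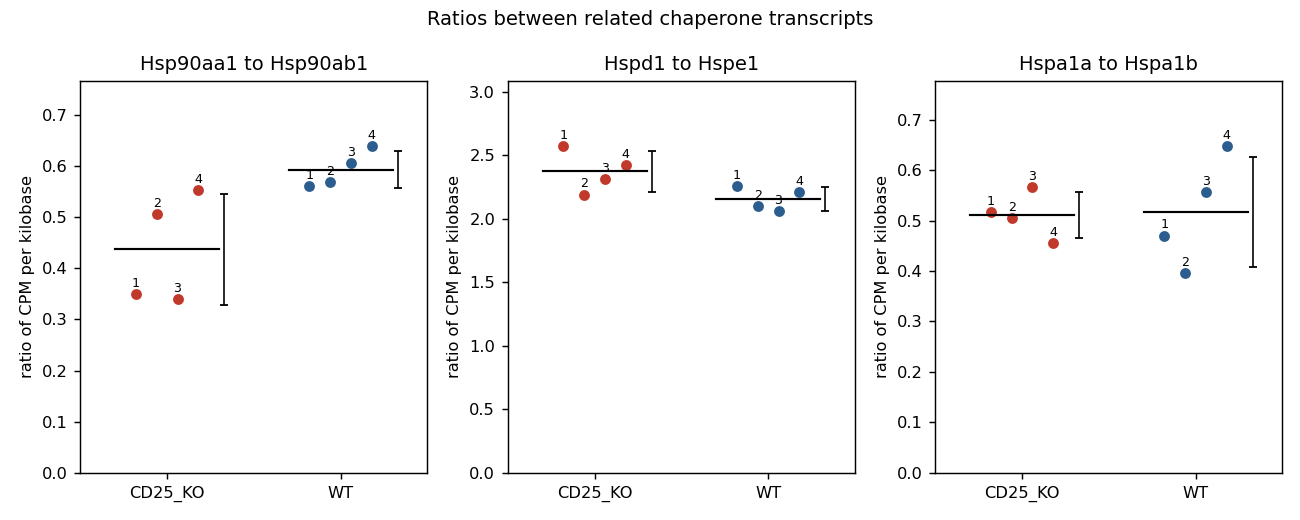
Ratios of CPM per kilobase between related chaperone genes in the CD25_KO libraries (left) and WT libraries (right) of each panel; numbers are replicates, lines are means and bars are SDs. The Hsp90aa1 to Hsp90ab1 ratio is at most 0.552 in CD25_KO and at least 0.56 in WT, while the Hspa1a to Hspa1b ratios overlap.

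Hspd1 and Hspe1 encode HSP60 and HSP10, the barrel and the lid of the mitochondrial chaperonin, and lie head to head on chromosome 1 (55077835 to 55088243, minus strand, and 55088132 to 55091307, plus strand). Hspd1 had 141, 147, 125 and 156 CPM in CD25_KO, against 154, 145, 159 and 169 CPM in WT. The groups overlapped, and the log2 fold change was −0.14 ± 0.10 with an edgeR adjusted p of 0.538, and −0.08 without CD25_KO 3. Hspe1 had 30.7, 37.4, 30.4 and 36.0 CPM in CD25_KO, against 37.9, 38.6, 43.1 and 42.6 CPM in WT. Every CD25_KO library was below every WT library, with CD25_KO 1 and 3 the lowest, as for Hsp90aa1. Its log2 fold change was −0.27 ± 0.12, with an unadjusted p of 0.0423 and an adjusted p of 0.391 by edgeR. The ratio of Hspd1 to Hspe1 per kilobase was 2.19 to 2.57 in CD25_KO and 2.06 to 2.26 in WT.

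The annotated spans of Hspd1 and Hspe1 overlap by 112 bases on opposite strands. With no strand setting recorded for the counting, reads from exonic bases shared there cannot be assigned to one of them. Pseudogenes named after these genes had low levels: 5 of Hspd1 summed to 5.89% of the Hspd1 level and 6 of Hspe1 to 1.53% of the Hspe1 level. Copies under other names were not searched, and what such copies add to the counts of the genes was not tested. The antisense gene Gm20481, whose span overlaps that of Hspa1a by 2225 bases, had 0 CPM. Whether this overlap affected the Hspa1a counts was not tested.

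Over the 10 genes, 6 fold changes were positive and 4 negative, with a median log2 of 0.13, against 0.003 over all tested genes. At an unadjusted p under 0.05, edgeR gave 0 higher and 2 lower chaperones (Hsp90aa1 and Hspe1), which compares with 5.53% of all genes higher and 7.11% lower. The same 2 genes were those whose groups did not overlap; among all tested genes 2.62% lay higher and 4.17% lower in CD25_KO without overlap, so this share is above the background but rests on 2 genes. DESeq2 called 0 of the 10 (3 at an unadjusted p under 0.05, as were 14% of all genes in either direction) and 6 genes in all. limma-voom with quality weights called 0 of the 10 (6 at an unadjusted p under 0.05, as were 19.9% of all genes in either direction) and 0 genes in all. At that unadjusted p, DESeq2 had Hsf1 higher and Hsp90aa1 and Hspe1 lower. By limma-voom, Dnajb1, Hsph1 and Hsf1 were higher and Hspa8, Hsp90aa1 and Hspe1 lower. In bulk samples, fewer cells of a type and less RNA per cell cannot be told apart.

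The comparison of Hspa1a, Hspa1b, Dnajb1, Hsph1 and Hsf1 depended on the extreme WT libraries, WT 2 and WT 4. Without WT 2 the log2 fold changes were smaller or negative: 0.29 for Dnajb1, 0.35 for Hsph1, 0.52 for Hsf1, −0.25 for Hspa1a and −0.085 for Hspa1b. Without WT 4 the CD25_KO libraries did not overlap the remaining WT libraries for Dnajb1, Hsph1 and Hsf1, all higher, and for Hsp90aa1 and Hspe1, both lower. In that comparison 14% of all tested genes lay higher without overlap and 8.44% lower. For Hsph1 the gap was narrow, with 38.7 CPM in CD25_KO 2 against 38.5 CPM in WT 3. The log2 fold changes without WT 4 were 1.17 ± 0.64 for Hspa1a, 1.06 ± 0.60 for Hspa1b, 0.93 ± 0.23 for Dnajb1, 0.77 ± 0.25 for Hsph1 and 1.16 ± 0.26 for Hsf1. The edgeR adjusted p was 0.0502 for Hsf1, 0.0584 for Dnajb1, 0.117 for Hsph1, 0.320 for Hspa1a and 0.333 for Hspa1b, so 0 of the 10 were called, whereas 1.84% of all genes were called higher.

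**Figure D5:**
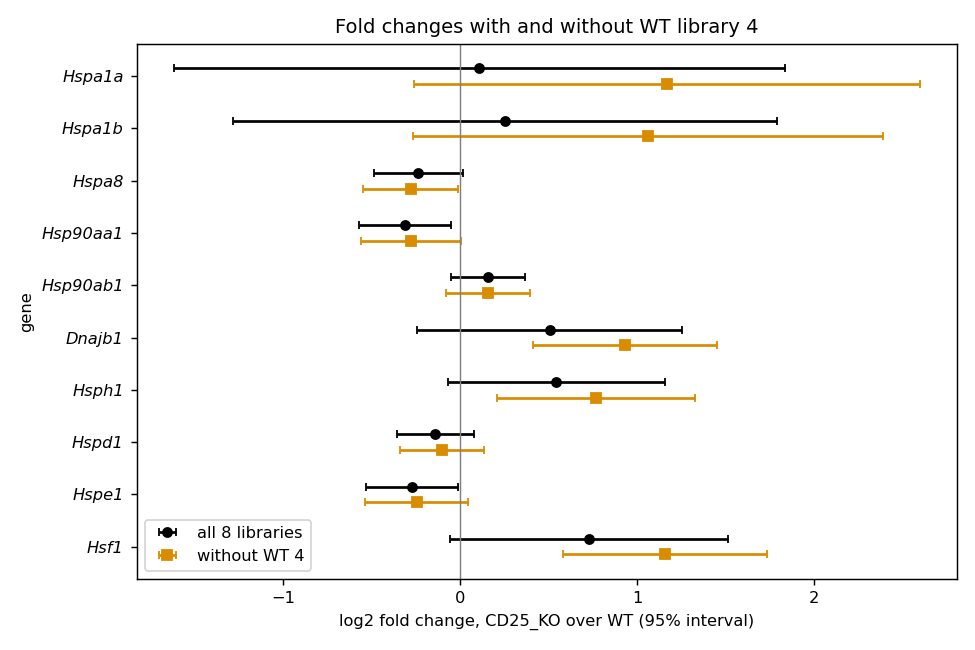
Log2 fold change of CD25_KO over WT (horizontal axis) with its 95% interval for the 10 genes, from all 8 libraries (black circles) and without WT 4 (orange squares). The estimate for Hspa1a is 0.11 with all libraries and 1.17 without WT 4, while that for Hsp90aa1 is −0.31 and −0.28.

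In both groups the libraries with Y-linked transcripts were lower than all others of the group for Hspa1a, Hspa1b, Hsph1, Hsf1 and the constitutive Hsp90ab1. That is 5 of the 10 genes, against 10.7% of all tested genes. Some gaps were narrow: Hsp90ab1 had 572 CPM in WT 2 and 573 in WT 1. Hsph1 had 52.2 CPM in CD25_KO 4 and 52.7 in CD25_KO 1. Hspa1a and Hspa1b are also not fully separate, since fragments that map to both were counted at each. Dnajb1 was not lower in every library with Y-linked transcripts, since CD25_KO 4 was its highest CD25_KO library. Nor was the stress-responsive Hsp90aa1, with 412 and 408 CPM in CD25_KO 2 and 4, against 325 and 313 CPM in CD25_KO 1 and 3. Among libraries with Y-linked transcripts (2 CD25_KO, 1 WT), CD25_KO exceeded WT by a log2 of 2.27 for Hspa1a, 1.63 for Dnajb1 and 1.52 for Hsf1. Among those without (2 CD25_KO, 3 WT) the differences were 0.65, 0.34 and 0.80 for the same genes. Hsp90aa1 differed by a log2 of −0.06 among libraries with Y-linked transcripts and −0.53 among those without, and Hspe1 by −0.07 and −0.43. These within-set values have no test, since one set holds a single WT library.

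With the presence of Y-linked transcripts as a term, edgeR called 0 of the 10 genes over all 8 libraries. The share of all genes called in that fit is not given here. In that fit edgeR gave its smallest adjusted p among the 10 for Hsph1 (0.0934) and Hsf1 (0.0959), against 0.421 and 0.407 without the term. With that term and without WT 4 it called 5 of the 10, all higher: Hspa1a (log2 fold change 1.64, adjusted p 0.0139), Hspa1b (1.49, 0.0224), Dnajb1 (1.05, 0.0112), Hsph1 (0.92, 0.0109) and Hsf1 (1.30, 0.00219). The same fit called 11.9% of all genes higher. With a trend on GC content removed from each library and without WT 4, 1 of the 10 was called, Hsf1 (log2 fold change 1.07, adjusted p 0.0442), beside 3.61% of all genes higher. Both fits leave out the same library, WT 4, which was the highest WT library for each of the 5 genes called. Neither combination was run without WT 2 or any other library. Whether WT 4 or the other 3 WT libraries better represent the genotype was not tested.

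The wider chaperone network was read from lists of 54 other genes, of which 47 could be tested and 0 were called by edgeR. The 8 subunits of CCT, the cytosolic chaperonin that folds actin and tubulin, had 2 positive and 6 negative fold changes with a median log2 of −0.19; 5 of the 8 lay lower in CD25_KO without overlap (4.17% of all tested genes did), and 4 were lower at an unadjusted p under 0.05 (7.11% of all). Cct6a had 217 ± 22.1 CPM in CD25_KO and 257 ± 7.38 CPM in WT (SD, n = 4 each), with a log2 fold change of −0.24 ± 0.09 and an edgeR adjusted p of 0.391. Cct5 had 365 ± 29.7 CPM in CD25_KO and 428 ± 23.9 CPM in WT (SD, n = 4 each). In both, CD25_KO 1 and 3 were the lowest libraries, as for Hsp90aa1, Hspd1 and Hspe1.

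Of 23 cochaperones of HSP70 and HSP90, 22 were tested, with 13 positive and 9 negative fold changes and a median log2 of 0.10. Unc45a, a cochaperone of HSP90, was higher in all CD25_KO libraries, with 86.9, 72.2, 94.8 and 75.4 CPM in CD25_KO, against 68.9, 47.3, 66.1 and 62.4 CPM in WT (log2 fold change 0.43 ± 0.14, edgeR adjusted p 0.391). Dnajb6, an HSP40 that keeps proteins from aggregating, had 330, 310, 334 and 361 CPM in CD25_KO, against 229, 154, 248 and 351 CPM in WT, with WT 2 lowest and WT 4 well above the other WT libraries, as for Dnajb1. Its log2 fold change was 0.44 ± 0.21 with an edgeR adjusted p of 0.398.

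Among 10 other HSP70, HSP110 and small heat shock protein genes, 6 were tested, with 4 positive and 2 negative fold changes and a median log2 of 0.22. Hspb1, Hspb8, Cryab and Hspa1l were among those below the filter. Hspa2, an HSP70 best known from male germ cells, had 177, 127, 172 and 149 CPM in CD25_KO, against 81.6, 43.8, 91.3 and 139 CPM in WT, with a log2 fold change of 0.81 ± 0.29 and an edgeR adjusted p of 0.391. Without WT 4 it was called (log2 fold change 1.11 ± 0.23, adjusted p 0.0493). Hspa13, an HSP70 of the secretory pathway, had 27.4 ± 3.31 CPM in CD25_KO and 33.2 ± 3.12 CPM in WT (SD, n = 4 each), with a log2 fold change of −0.27 ± 0.13.

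The 9 other mitochondrial chaperones and proteases had 5 positive and 4 negative fold changes with a median log2 of 0.34. Dnaja3, a mitochondrial HSP40, was higher in all CD25_KO libraries, with 91.3, 94.2, 100 and 93.7 CPM in CD25_KO, against 75.2, 52.1, 85.3 and 88.0 CPM in WT (log2 fold change 0.34 ± 0.16, edgeR adjusted p 0.397). Hspa9, the mitochondrial HSP70, had a log2 fold change of 0.43 ± 0.24 and an adjusted p of 0.456 by edgeR. Clpx, the unfoldase of the ClpXP protease, chosen after its values were seen, was the other network gene called without WT 4 (log2 fold change 0.93 ± 0.19, adjusted p 0.0493). Of the 4 genes listed as other heat shock factors or HSF binding protein, 2 were tested: Hsf2 had a log2 fold change of 0.22 ± 0.23 and Hsbp1, which binds HSF1 and dampens it, −0.12 ± 0.10.

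Immediate early genes such as Fos, Jun and Egr1 are known to respond, like the inducible chaperones, to the handling of cells. Of 20 listed, 19 were tested and 0 were called; 18 fold changes were positive and 1 negative, the median log2 was 0.76, and 8 had an unadjusted p under 0.05, all higher, against 5.53% of all tested genes. Their summed CPM was 2340.5, 1913, 3514.5 and 1898.8 in CD25_KO, against 1714.3, 2011.7, 1850.6 and 1740.9 in WT. CD25_KO 1 and 3 were highest in that sum, as they were among CD25_KO libraries for Hspa1a, Hspa1b and Hsf1. WT 4, highest of all for Hspa1a, was not high in the sum, which the most abundant genes carry. With every gene weighted alike, the mean centred log2 CPM of the list was 0.63, −0.045, 0.921 and −0.054 in CD25_KO 1 to 4, against −0.422, −0.597, −0.477 and 0.045 in WT 1 to 4. On that scale WT 4 was the highest and WT 2 the lowest WT library, as for Hspa1a. Klf4 (log2 fold change 1.09 ± 0.35) and Klf2 (0.70 ± 0.23), both factors of quiescence and differentiation, had the smallest unadjusted p of the list, each with an edgeR adjusted p of 0.391. Without WT 4, Dusp1, Ier2, Jun and Junb were called higher, with log2 fold changes of 1.48, 1.81, 2.39 and 2.22 and adjusted p of 0.0493 each; these genes were chosen after their values were seen, and 1.84% of all genes were called higher in that fit. The part of cell handling in the chaperone values was not tested.

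No marker of another marrow cell type was called by edgeR. Erythroid markers summed to 513 to 2585.5 CPM in CD25_KO and 3324.1 to 8930.1 CPM in WT, the highest value being WT 4, and 5 of 11 tested lay lower in CD25_KO without overlap, against 4.17% of all tested genes. NK cell markers summed to 9.92 to 34.0 CPM in CD25_KO and 37.9 to 57.5 CPM in WT, again without overlap of the sums. The sums overlapped for neutrophil markers (122 to 502 CPM in CD25_KO, 266 to 575 in WT), where all 11 fold changes were negative and 0 had an unadjusted p under 0.05, and for monocyte and macrophage markers (38.9 to 166 CPM in CD25_KO, 128 to 225 in WT). T cell markers (21.8 to 33.9 CPM in CD25_KO, 30.2 to 38.5 in WT), plasma cell markers (500 to 620 in CD25_KO, 487 to 565 in WT) and megakaryocyte markers (0.481 to 10.9 in CD25_KO, 3.44 to 11.1 in WT) overlapped too, and Gp1bb was at 0 in every library. CD25_KO 1 and 3, lowest for Hsp90aa1 and Hspe1, also had the lowest erythroid, neutrophil, monocyte and NK sums. The part of these cells in the chaperone values was not tested.

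The genes most alike in pattern were taken as those with the smallest root mean square difference of centred log2 CPM over the 8 libraries, among 8945 protein coding genes with at least 5 CPM on average. For Hspa1a they were Rps6ka4, a kinase of the MAP kinase cascades (0.528), Tmem191c (0.542) and Ier2, an immediate early gene (0.59), against a median of 1.29 over all genes. Ier2 had 47.9, 18.4, 35.7 and 29.8 CPM in CD25_KO, against 11.8, 4.97, 11.5 and 45.4 CPM in WT, with WT 2 lowest as for Hspa1a. For Hsp90aa1 they were Cycs, which encodes cytochrome c (0.0456), Npm1, which encodes the nucleolar histone chaperone nucleophosmin (0.0477), and Pigf, of GPI anchor synthesis (0.0492), against a median of 0.325. Npm1 had 245, 292, 219 and 279 CPM in CD25_KO, against 314, 315, 334 and 348 CPM in WT, again without overlap. For Hspd1 they were Acat1 (0.0415), Actl6a (0.0459) and Hnrnpf (0.0566), against a median of 0.265. All 8 libraries entered both sides of each value, so likeness includes whatever the libraries share.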

How the data were processed

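Raw counts of fragments per gene were deposited by the authors for 55487 genes in 8 libraries. Per the file headers, featureCounts 2.0.1 counted paired fragments over exons of GENCODE M25, multi-mapping fragments were counted at every place they aligned and no strand option was set; the deposited table also gives the summed exon length of each gene, used only for levels per kilobase. Per the submitters' processing notes, STAR 2.7.7a, GATK 4.1.9.0 and the mm10 build were used. The table held 0 columns of other samples. Names, positions and GC content came from GENCODE M21 on the same build, where 55227 identifiers were found.

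Counts were tested with edgeR 4.0.16 under R 4.3.3 (two-sided robust quasi-likelihood fit and test with genotype alone, TMM scaling, filterByExpr), and p-values were adjusted by Benjamini-Hochberg over 18884 genes at a threshold of 0.05. CPM were computed from the counts and are TMM-scaled. The method was tested on simulated data. The lowest chi-square per degree of freedom among 12 library pairs within groups was 16.7, so no library was a copy of another in its group. Pairs between the groups were not compared. The members, the lists and the tests were chosen with earlier results of these data known. All 10 members were named; in each network and immediate early list the genes past the adjusted p, or otherwise the 2 with the smallest unadjusted p, were named, and for marker lists the sums. Alternatives were other scalings and filters, a replicate block, leaving out each library, a term for Y-linked transcripts, a GC trend (loess, span 0.5), DESeq2 1.42.0 and limma-voom 3.58.1. From the pro-B cell marker list, 1 gene is not reported here.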

Additional observations from a re-analysis of the deposited data

Results flagged for a closer look

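One value stood apart within its group: in CD25_KO 4 the HSP90 genes Hsp90aa1 and Hsp90ab1 together took 0.0967% of all counts, against 0.103, 0.104 and 0.103% in CD25_KO 1, 2 and 3. The gap to the nearest library was 0.863 of the range of the group, above Dixon's 95% limit for 4 samples. In total 48 groups were examined, and chance marks about 1 in 20. The WT libraries lay at 0.101, 0.102, 0.106 and 0.102%.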

How the results depend on the processing

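The count of heat shock chaperones called remained 0 under other scalings and filters, DESeq2, limma-voom, the Y-linked term alone and the GC trend alone. The count was also 0 at an adjusted p of 0.1 in the main fit and when any single library was left out. It was 5 with the Y-linked term and without WT 4, and 1 with the GC trend removed and without WT 4, the only library left out in combination. The count of network genes called was 11 and 6 under those fits and 0 to 2 when 1 library was left out; that of immediate early genes was 9 and 5, and 0 to 4. Those fits called 11.9% and 3.61% of all genes higher, and the one without WT 4 alone 1.84%. The log2 fold change of Hspa1a ran from −0.25 to 1.17 when 1 library was left out and was −0.053 with the GC trend removed. It was −0.10 without CD25_KO 1, −0.17 without CD25_KO 3, −0.25 without WT 2 and −0.14 without WT 3. Hspa1b ran from −0.085 (without WT 2) to 1.06, and Il2ra from −0.27 to 0.01 (without WT 2). The cause was not tested. With the replicate number as a block 0 members were called, and Hsf1 had a log2 fold change of 0.86 (edgeR adjusted p 0.274). Same-numbered libraries correlated at 0.007, 0.636, 0.245 and −0.033 in their deviations. CD25_KO 1 correlated best with WT 4 (0.645), and CD25_KO 2 with WT 2. The labels give no pairing by number, and these correlations cannot exclude one. Of the fold changes under alternatives, 206 kept their direction and side of the threshold, 7 reversed and 6 passed it. Hspa1a and Hspa1b gave no value under the filter of 10 CPM in 4 libraries. The lowest count behind a chaperone value was 31 (Hspa1a in WT 2). With 4 libraries a group, the scatter between libraries limits precision to the intervals given, which for Hspa1a span more than a 2-fold change in either direction.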
